A study of Mus musculus with 27 samples.

Results

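Hearts of mouse embryos at day E11.5 that carried a deletion of 1 copy of Tbx5 together with 1 copy of Brg1 were compared with wild-type hearts, on 3 arrays labelled Tbx5+/- Brg1 +/- and 6 arrays labelled wild type. These 9 arrays are part of 27, and the members were taken by the genotype in the array title. The strain is given as a C57Bl/6/BLKSW mix for every array, the tissue as heart and the material as total RNA. Arrays labelled Tbx5+/- (n = 5) and Brg1+/- (n = 6) carry the single losses and serve as reference points below. It is not stated which exons of either gene were removed, whether the deletions were made in all tissues, or whether an array holds 1 embryo or a pool. The p-values therefore measure the spread between these arrays, which may be partly technical. Values are RMA log2 signals of 19935 genes, so that a difference of 1 is a doubling, and each gene is read from the brightest of its probe sets.

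Tbx5 is a T-box transcription factor of the atria, the left ventricle and the conduction system, and loss of 1 copy in humans causes Holt-Oram syndrome, with defects of the heart and upper limbs. Brg1, encoded by Smarca4, is an ATPase of the BAF complex, which uses ATP to move and evict nucleosomes so that transcription factors and the transcription machinery can reach DNA. T-box factors and BAF complexes are known to act together at heart genes. The design asks how hearts labelled with a deletion of 1 copy of each gene differ from wild type, and no protein was measured. The atrial and conduction gap junction gene Gja5, the natriuretic peptide gene Nppa and the pacemaker channel gene Hcn4 are among the genes that Tbx5 is known to regulate.

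The gene with the smallest p in this comparison was Gja5 (probe set 10494548), which encodes connexin 40, the gap junction protein that couples atrial and ventricular conduction cells. Its signal was 8.77, 8.80 and 8.53 in the 3 Tbx5+/- Brg1 +/- arrays. In wild type it was 9.56 at the lowest, 9.81 at the median and 9.96 at the highest. Every Tbx5+/- Brg1 +/- array thus lay below every wild-type array, and also below every Tbx5+/- array (8.95 to 9.74) and every Brg1+/- array (9.30 to 10.09). The difference of -1.10 (SE 0.19, 95% interval -1.49 to -0.70) is 2.14-fold lower, with a limma adjusted p of 0.102 that did not pass the threshold of 0.05.

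Sequences upstream of the start site were read for the known targets, with the T-box core site AGGTGT (or ACACCT on the other strand) in capitals. The window is the 250 bases before the start, from RefSeq on GRCm38.p6 and in the direction of transcription, at chr3:97032152-97032401 (plus strand) for Gja5, chr9:58822699-58822948 (plus strand) for Hcn4 and chr4:148000472-148000721 (plus strand) for Nppa. These 3 are shown because they stand at a large, a moderate and almost no difference.
Gja5: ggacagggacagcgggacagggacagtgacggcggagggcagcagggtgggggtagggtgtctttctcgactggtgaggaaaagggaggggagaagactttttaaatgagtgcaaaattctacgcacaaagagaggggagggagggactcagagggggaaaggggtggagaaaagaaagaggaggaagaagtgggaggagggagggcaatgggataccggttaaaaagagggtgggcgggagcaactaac
Hcn4: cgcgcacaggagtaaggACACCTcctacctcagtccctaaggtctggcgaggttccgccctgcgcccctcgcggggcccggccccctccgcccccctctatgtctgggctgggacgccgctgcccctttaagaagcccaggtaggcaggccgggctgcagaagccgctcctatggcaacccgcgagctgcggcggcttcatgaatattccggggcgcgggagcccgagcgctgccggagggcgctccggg
Nppa: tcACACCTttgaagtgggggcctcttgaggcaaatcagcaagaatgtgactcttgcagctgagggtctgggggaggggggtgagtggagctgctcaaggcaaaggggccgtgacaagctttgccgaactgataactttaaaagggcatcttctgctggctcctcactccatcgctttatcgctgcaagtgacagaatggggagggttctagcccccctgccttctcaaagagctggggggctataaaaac
The first has no core site in this window, Hcn4 has 1 that starts 233 bases before the start, and Nppa has 1 that starts 248 bases before it. Over all 32851 promoters, 11.8% hold the core site in the same window. The share was 12.5% among 16 promoters of 14 of the 15 lower genes of smallest p. Among 18 promoters of 18 of the 25 genes of the Tbx5 target list it was 16.7%. A match describes letters only.

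Over all genes, limma called 0 of 19935 at an adjusted p under 0.05 (0%). At an unadjusted p under 0.05 there were 873 genes, of which 313 were lower in Tbx5+/- Brg1 +/- hearts (1.57% of genes tested) and 560 higher (2.81%). Chance alone gives a share of 0.05 of genes at that threshold, which the 873 do not exceed. A further quantile normalization of the same values gave 487 lower and 426 higher, so the balance of the directions depended on the scaling. Groups did not overlap at all for 190 genes on the lower side (0.953%) and 278 on the higher side (1.39%). With 3 arrays against 6, chance alone separates the groups for a share of 0.0238 of genes, both sides together. The 468 genes here are near that share, so a lack of overlap in a single gene is weak evidence by itself. A difference of at least 1.5-fold was held by 33 genes on the lower and 19 on the higher side, and 15 and 5 of these also had groups that did not overlap. Of the 560 higher genes 51.8% had a mean signal under 5 on the log2 scale, against 16.6% of the 313 lower genes and 23.9% of all genes. Among genes whose groups did not overlap these shares were 37.4% for the higher and 12.6% for the lower side. Among genes past 1.5-fold they were 31.6% and 9.1%, and there the median signal was similar on both sides, at 6.31 and 6.14.

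**Figure D1:**
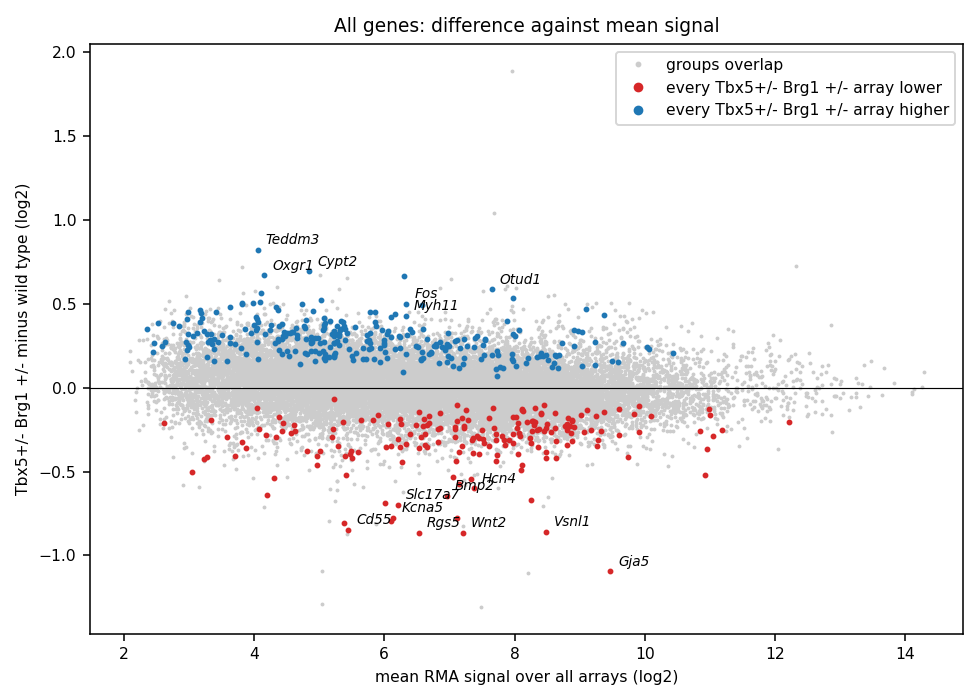
Difference between Tbx5+/- Brg1 +/- and wild type (log2, vertical axis) against the mean RMA signal over all arrays (log2, horizontal axis), 1 point per gene. Red and blue points are genes whose 3 Tbx5+/- Brg1 +/- arrays all lie below or above all 6 wild-type arrays. Gja5 is the lowest of the red points at -1.10, and Teddm3, at 0.82, is the highest of the blue points and has a low mean signal.

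The RNA signal of the deleted genes was read first. Smarca4 (probe set 10583697) stood at 9.51, 9.64 and 10.01 in the Tbx5+/- Brg1 +/- arrays, against 9.95 to 10.16 with a median of 10.07 in wild type. At 10.01, replicate 3 lay within the 9.89 to 10.23 of 14 of the 15 arrays whose label names no Brg1 deletion. The remaining one, Nkx2-5+/- replicate 3, stood at 9.57 and also went against its label; it enters no comparison here but takes part in the estimate of the spread. The other 11 arrays whose label names a Brg1 deletion ran from 9.16 to 9.64. The library labelled Tbx5+/- Brg1 +/- replicate 3 therefore went against its label, and directions below hold for arrays as labelled. The Smarca4 difference was -0.35 (SE 0.12, limma adjusted p = 0.979), and -0.49 without replicate 3 (adjusted p = 0.711). Tbx5 itself (probe set 10525030) was 8.63, 8.70 and 8.50, inside the wild-type range of 8.40 to 8.96, for a difference of 0.05 (SE 0.14). That probe set does not check the label, since the deleted part is not stated. The cardiac factor gene Nkx2-5 stood at 9.83 ± 0.16 (SD, n = 3) against 9.59 ± 0.34 (SD, n = 6).

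The same array stood apart in other ways. The mean of the erythroid marker list was 10.04 in Tbx5+/- Brg1 +/- replicate 3 and 8.60 and 8.84 in the other 2, against 8.30 to 9.79 in wild type. Over the 17 red cell genes of that list the median difference was 0.20 with all arrays and -0.22 without that array. Without replicate 3, limma again called 0 genes, and 765 had an unadjusted p under 0.05, 218 lower and 547 higher. Xist, the transcript of the inactive X chromosome, was high on 5 of 6 wild-type and 2 of 3 Tbx5+/- Brg1 +/- arrays. In whole hearts, fewer cells of a type and less RNA per cell cannot be told apart. The tissue label itself was borne out by the atrial peptide gene Nppa (12.63 ± 0.36 in wild type, SD, n = 6), the calcium pump gene Atp2a2 (12.33 ± 0.09) and the myosin light chain gene Myl3 (12.03 ± 0.50).

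**Figure D2:**
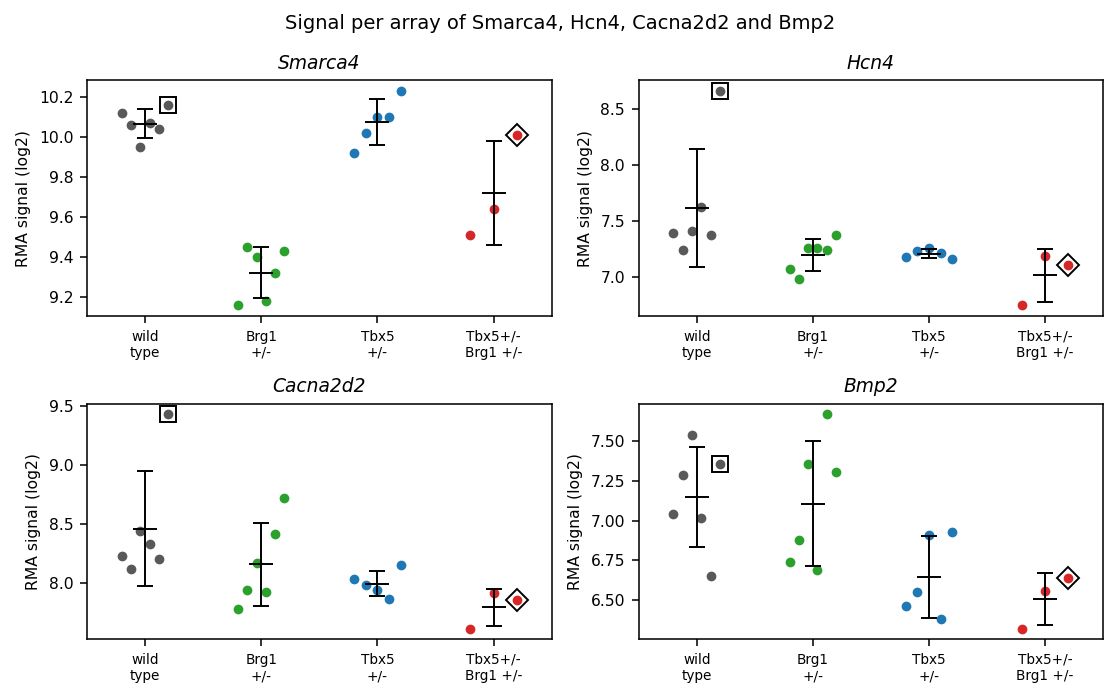
RMA log2 signal (vertical axes) of Smarca4, Hcn4, Cacna2d2 and Bmp2 on each array of 4 genotypes, with the mean and SD in black. The diamond marks Tbx5+/- Brg1 +/- replicate 3, whose Smarca4 is 10.01, and the square marks wild type replicate 6, whose Hcn4 (8.66) and Cacna2d2 (9.43) lie above all other arrays shown.

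Next to Gja5, 5 genes had the smallest p, all lower in the Tbx5+/- Brg1 +/- arrays. Slc17a7 (probe set 10552857), a vesicular glutamate transporter, stood at 5.86, 5.61 and 5.89 against 6.29, 6.47 and 6.72 (lowest, median and highest) in wild type, a difference of -0.70 (SE 0.13, adjusted p = 0.1455). Vsnl1 (probe set 10399407), a neuronal calcium sensor also known as a marker of the sinoatrial node, stood at 8.01, 7.87 and 8.31 against 8.48, 8.93 and 9.30, a difference of -0.86 (SE 0.19, adjusted p = 0.606). For neither gene did the 2 groups overlap. Ap3b2 (probe set 10565102), a subunit of the neuronal AP-3 vesicle coat, was nearly level within the group, at 6.73, 6.67 and 6.71, against 7.06, 7.57 and 7.72 in wild type. Kcna5 (probe set 10548043), the atrial potassium channel that carries the ultrarapid repolarizing current, stood at 5.38, 5.73 and 5.64 against 5.90, 6.44 and 6.70. Wnt2 (probe set 10543253), a secreted Wnt ligand of the inflow region, stood at 6.53, 6.81 and 6.98 against 7.28, 7.55 and 8.17. These 3 also did not overlap, with differences of -0.78 for Ap3b2, -0.77 for Kcna5 (adjusted p = 0.649 for both) and -0.86 for Wnt2 (adjusted p = 0.834). With array weights, which lower the influence of noisy arrays, limma called 6 genes, namely Gja5, Slc17a7, Vsnl1, Ap3b2, Kcna5 and Wnt2. They are the same 6 genes on the same arrays, so these calls are not separate evidence. With the weights 1783 genes had an unadjusted p under 0.05, in place of 873.

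**Figure D3:**
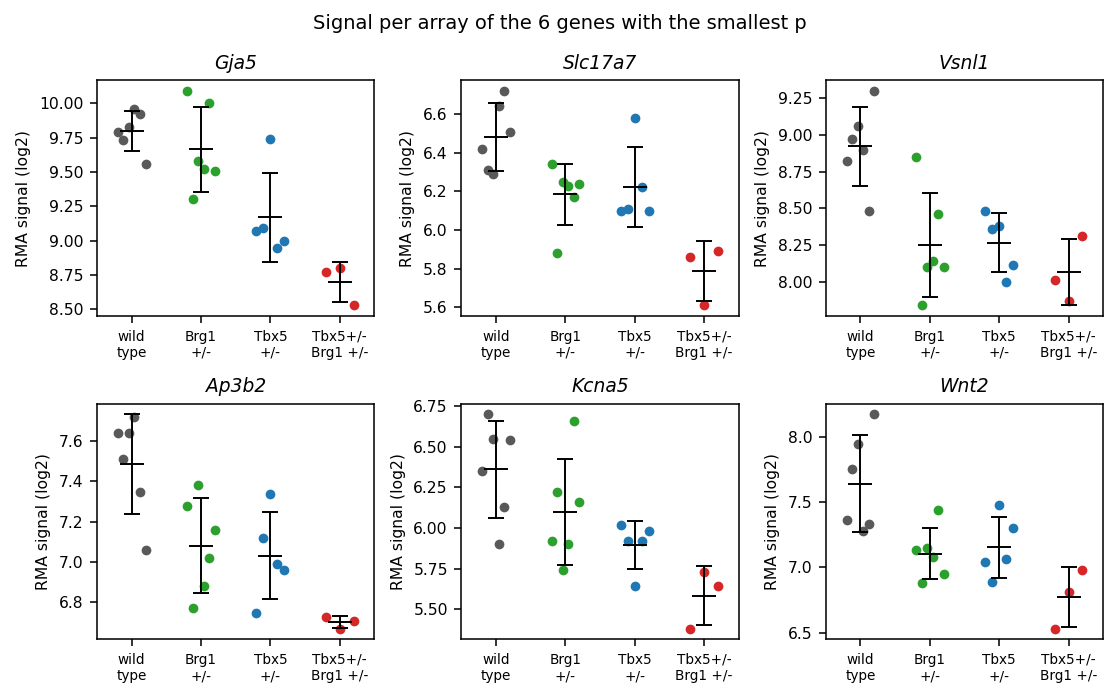
RMA log2 signal of the 6 genes with the smallest p on each array of wild type (n = 6), Brg1+/- (n = 6), Tbx5+/- (n = 5) and Tbx5+/- Brg1 +/- (n = 3), with the mean and SD in black. In all 6 panels every Tbx5+/- Brg1 +/- array lies below every wild-type array, and for Gja5 and Ap3b2 also below every array of both single losses. For Ap3b2 the margin is small, with 6.73 at the highest against 6.75 in Tbx5+/- and 6.77 in Brg1+/- at the lowest.

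Other lower genes among the 15 of smallest p are given by their difference. The neuropeptide gene Gal stood at -0.61, the interferon-induced GTPase gene Irgm1 at -0.81, the interleukin receptor gene Il1rl2 at -0.52 and the protease gene Prss35 at -0.58. Nos1ap, an adaptor of neuronal nitric oxide synthase that is linked to the QT interval, stood at -0.39, the insulin receptor gene Insr at -0.42 and the sugar transporter gene Slc2a12 at -0.44. The adjusted p was 0.979 for each, and groups overlapped for Gal and Prss35. By size of the difference among genes without overlap, Rgs5, a regulator of G protein signalling in pericytes and vascular smooth muscle, stood at -0.87. Cd55, a brake on complement, stood at -0.85. Rgs5 was 6.40, 6.37 and 5.75, just under the lowest wild-type value of 6.45.

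Several higher genes of largest difference or smallest p had a low signal. Teddm3 stood at 4.57, 4.52 and 4.48 against 3.0 to 4.19 in wild type, Cypt2 at 5.42, 5.22 and 4.85 against 4.0 to 4.81, and the oxoglutarate receptor gene Oxgr1 at 5.09, 4.44 and 4.42 against 3.82 to 4.29. Their differences were 0.82, 0.69 and 0.67, and the adjusted p was 0.834 at the lowest, for Cypt2. Among genes of higher signal, the deubiquitinase gene Otud1 stood at 0.59, the immediate early gene Fos at 0.50 and the fast-muscle myosin light chain gene Mylpf at 0.49. Myh11 (probe set 10437885), the myosin heavy chain of smooth muscle, was 6.95, 6.88 and 6.62 against 6.12 to 6.57 in wild type, 5.96 to 6.40 in Brg1+/- and 6.14 to 6.57 in Tbx5+/-. Myh11 was thus higher in the 3 Tbx5+/- Brg1 +/- arrays than on every wild-type, Brg1+/- and Tbx5+/- array, with a difference of 0.43 from wild type (SE 0.12, adjusted p = 0.979).

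The list of known Tbx5 targets, of which 24 were measured, had a median difference of -0.17, against 0.01 over all genes. Of the 24, 16 stood below 0, against 45.7% of all genes, 7 were lower and 2 higher at an unadjusted p under 0.05, and 5 were lower without overlap. The 7 are 29.2% of the list against 1.57% of all genes, the 2 are 8.3% against 2.81%, and the 5 are 20.8% against 0.953%. Without Tbx5+/- Brg1 +/- replicate 1 the 7 became 4 and the 2 became 0. The list is from general knowledge of the heart and was written with earlier results of these data known. Hcn4 (probe set 10585851), the channel of the pacemaker current, was 6.75, 7.19 and 7.11 against 7.24, 7.40 and 8.66 in wild type, just short of overlap, for a difference of -0.60 (SE 0.20). Without wild type replicate 6, which held the 8.66, that difference was -0.39. Bmp2 (probe set 10476395), the ligand that patterns the atrioventricular canal, was 6.32, 6.56 and 6.64 against 6.65 to 7.54, a difference of -0.64 (SE 0.26). Tbx3 and Shox2, transcription factors of the node and conduction tissue, stood at -0.37 and -0.46 with overlapping groups.

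Other known targets stood elsewhere. Nppa was 12.81, 12.88 and 12.11 against 12.17 to 13.09, a difference of -0.03 (95% interval -0.53 to 0.47) whose sign depends on the setting. The related ventricular peptide gene Nppb stood at 0.45 (SE 0.20) and the proprotein convertase gene Pcsk6 at 0.40. Atp2a2, the calcium pump of the sarcoplasmic reticulum, was 12.16, 12.20 and 12.03 against 12.24 to 12.46, a difference of -0.20 without overlap. The calcium release channel gene Ryr2 stood at -0.16 and the helix-loop-helix gene Id2 at -0.26, both with overlapping groups. The Ryr2 value was -0.05 without wild type replicate 6, and the Id2 value -0.15 without Tbx5+/- Brg1 +/- replicate 3. Nppa, Pcsk6, Ryr2 and Id2 were chosen after their values were seen.

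Many conduction system genes stood lower in Tbx5+/- Brg1 +/- hearts. Of 26 measured genes, 18 stood below 0 with a median of -0.20, 9 had an unadjusted p under 0.05, all lower, and 7 did not overlap with wild type, namely Gja5, Hcn4, Vsnl1, Cacna2d2, Kcnj5, Bmp2 and Rgs6. The 9 are 34.6% of the list against 1.57% of all genes, and the 7 are 26.9% against 0.953%. The list was chosen with earlier results of these data known, so these shares may be partly fixed by the choice. Gja5, Hcn4, Shox2, Tbx3 and Bmp2 are among these 9 and also among the lower Tbx5 targets above, so the 2 lists are not separate evidence. Cacna2d2, a calcium channel subunit, was 7.61, 7.91 and 7.85 against 8.12 to 9.43. Kcnj5, a subunit of the acetylcholine-activated potassium channel, was 7.72, 7.85 and 7.86 against 8.0 to 8.53, and Rgs6, which quenches the vagal signal to that channel, 7.31, 7.25 and 7.14 against 7.37 to 8.08. The 9 became 6 without wild type replicate 6, which had a list mean of 7.99 against 7.66 to 7.78 on the other wild-type arrays, 6 without Tbx5+/- Brg1 +/- replicate 3 and 5 without its replicate 1. The list mean per array was 7.45 to 7.59 in Tbx5+/- Brg1 +/- hearts, below each wild-type array. Cacna2d2 and Rgs6 were chosen after their values were seen.

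Atrial genes, 17 measured, had a median of -0.10 with 12 below 0, and 4 were lower with no overlap (23.5% against 0.953% of all genes): Gja5, Kcna5, Nr2f1 and Stard10. Nr2f1, an orphan receptor of atrial identity, was 6.98, 6.74 and 6.83 against 7.07 to 7.97 in wild type (difference -0.53), and lay below every Tbx5+/- array (7.15 to 7.28). Stard10, chosen after its values were seen, stood at -0.31. Gja5 and Kcna5 are also members of the Tbx5 target list, and the atrial list too was chosen with earlier results known. Ventricular and trabecular genes had a median of 0.14, with 7 of 19 below 0 (36.8%, against 45.7% of all genes) and 1 higher at an unadjusted p under 0.05, Nppb (5.3%, against 2.81%), which is near the background. Irx4, a homeobox gene of the ventricles, stood at 0.49 and Irx3, a homeobox gene of the ventricular conduction system, at 0.24, both with overlap. Without Tbx5+/- Brg1 +/- replicate 2 they stood at 0.30 and 0.13. The ventricular median was -0.01 at the lowest over the settings tried.

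Contractile and ion-handling genes were read next. Of 31 sarcomere genes, 0 had an unadjusted p under 0.05, and the median was 0.08, with Myoz2 at 0.43. Calcium handling genes, 19 measured, had a median of -0.06, with the exchanger gene Slc8a1 at -0.39 and Trdn at -0.26. Potassium channel genes, 24 measured, had a median of -0.01 and 3 lower at an unadjusted p under 0.05 (12.5%, against 1.57% of all genes): Kcna5, Kcnj5 and Kcnk3, the last at -0.26. That count was 1 when wild type replicate 1 was left out, and also without replicate 1 or replicate 3 of the compound group. The 21 mitochondrial and fatty acid genes had a median of 0.03, and 0 had an unadjusted p under 0.05, with Esrra at 0.17. The 27 cell cycle genes likewise had 0, at a median of 0.03.

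Signalling genes followed. Of 30 genes of the Bmp and Tgf-beta pathways, 23 stood below 0 (median -0.11), and 4 were lower at an unadjusted p under 0.05 (13.3%, against 1.57% of all genes): the ligand genes Bmp2, Bmp4 (-0.34) and Tgfb2 (-0.34) and the receptor gene Tgfbr1 (-0.31). Without Tbx5+/- Brg1 +/- replicate 3 that count was 1, and without its replicate 1 or wild type replicate 6 it was 2. Tgfb2, chosen after its values were seen, was 7.72, 7.84 and 7.48 against 7.86 to 8.21. In the Notch list of 17, the ligand gene Jag1 was 8.39, 8.43 and 8.06 against 8.49 to 8.86 (difference -0.38), and no other member had an unadjusted p under 0.05. That is 5.9% of the list, against 1.57% of all genes, and rests on 1 gene. Of 28 BAF complex genes, Smarca4 was the only one at an unadjusted p under 0.05 (3.6%, against 1.57% of all genes), at a list median of -0.02. The paralogous ATPase gene Smarca2 stood at -0.26, and at -0.06 without Tbx5+/- Brg1 +/- replicate 3, and the core subunit gene Smarcc1 at -0.19. The 39 cardiac transcription factor genes had a median of -0.02, with 22 below 0. Of these genes 3 were lower at an unadjusted p under 0.05 (7.7%, against 1.57% of all genes): Nr2f1, Tbx3 and Shox2.

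**Figure D4:**
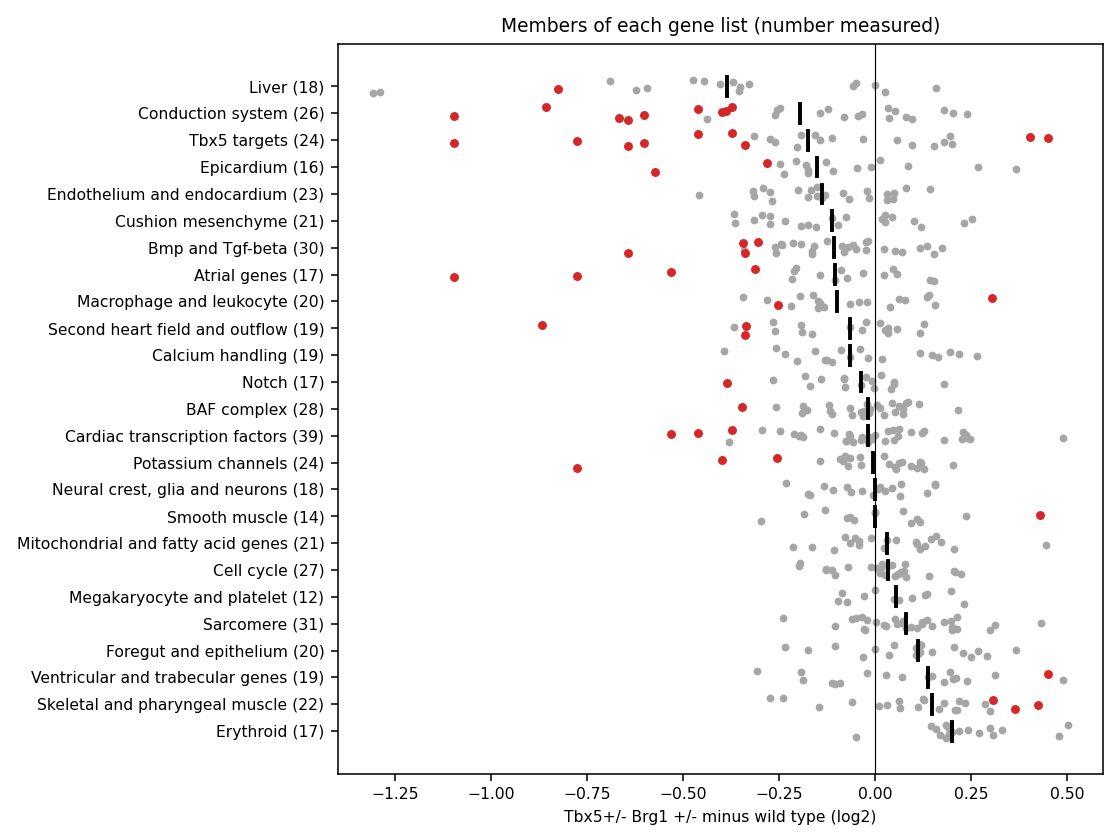
Difference between Tbx5+/- Brg1 +/- and wild type (log2, horizontal axis) of each member of 25 gene lists, with the number measured in brackets. Red points have an unadjusted limma p under 0.05 and black bars are list medians, which run from -0.39 for liver to 0.20 for erythroid genes. The conduction list holds 9 red points and the Tbx5 target list 9, with Gja5 at -1.10 in both. Lists share members, so a gene can appear in several.

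Markers of other cells that a heart sample can hold were read beside these groups. Endothelial and endocardial genes, 23 measured, had a median of -0.14 and 0 at an unadjusted p under 0.05, with Kdr at -0.46. Without Tbx5+/- Brg1 +/- replicate 3 that median was 0.01. Epicardial genes (16) had a median of -0.15 with Tcf21 at -0.28 and Cfi at -0.57, cushion mesenchyme genes (21) -0.11 with Sox9 at -0.27, and second heart field genes (19) -0.06 with Plxna2 at -0.34 (-0.18 without that replicate 3). At an unadjusted p under 0.05, 2 epicardial genes (12.5%), 0 cushion genes and 3 second heart field genes (15.8%) were lower, against 1.57% of all genes. The 3 were Plxna2, Rgs5 and Bmp4, the last also a member of the Bmp and Tgf-beta list. The smooth muscle list (14) had a median of 0, and Cald1 stood at -0.30. Myh11, which was higher, was its only member at an unadjusted p under 0.05 (7.1%, against 2.81% of all genes). Skeletal and pharyngeal muscle genes (22) had a median of 0.15 and 3 members higher at an unadjusted p under 0.05 (13.6%, against 2.81% of all genes), Tcf15 (0.31), Myh3 (0.42) and Chrng (0.36), and 0 without Tbx5+/- Brg1 +/- replicate 1. Neural and macrophage lists had medians of 0 and -0.10, with the macrophage genes Cd14 at -0.25 (-0.15 without Tbx5+/- Brg1 +/- replicate 3) and Lyve1 at 0.31 (0.16 without Tbx5+/- Brg1 +/- replicate 2).

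Among liver genes, Apoa2 at -0.83 was the only one at an unadjusted p under 0.05 (5.6%, against 1.57% of all genes). The liver list stood lowest of all lists, with a median of -0.39 over 18 genes, 15 below 0. Much of that difference lay in 1 array. Wild type replicate 3 had a liver list mean of 7.38 against 5.39 to 5.88 on the other wild-type arrays and 5.42 to 5.54 in Tbx5+/- Brg1 +/- hearts. Alb, the albumin gene, was 9.71 on that array and 4.45 to 5.65 on the others. Without it the liver median was -0.12 and the Alb difference -0.48, in place of -1.29. The part that foregut (median 0.11), platelet (0.06), liver and erythroid signals had in the differences above was not tested.

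Both single losses share the same 6 wild-type arrays with this comparison, so their differences are given side by side and not counted as separate evidence. Gja5 stood at -0.63 in Tbx5+/- and -0.13 in Brg1+/-, against -1.10 with both losses. Vsnl1 stood at -0.65 and -0.67 against -0.86, and Wnt2 at -0.49 and -0.54 against -0.86. Bmp2 stood near 0 in Brg1+/- (-0.04) but at -0.50 in Tbx5+/-, against -0.64, while Slc2a12 stood near 0 in Tbx5+/- (0.03) and at -0.26 in Brg1+/-, against -0.44. Other genes stood no lower with both losses than with one of them. Shox2 stood at -0.63 in Tbx5+/- and -0.64 in Brg1+/-, against -0.46, and Rgs5 at -1.10 in Tbx5+/-, against -0.87. Nr2f1 stood at -0.60 and Stard10 at -0.47 in Brg1+/-, against -0.53 and -0.31 with both losses. The conduction list had medians of -0.14 in Tbx5+/- and -0.25 in Brg1+/-, and the Tbx5 target list -0.10 and -0.21. The genes of smallest p were chosen for their difference with both losses, so a smaller single-loss value is partly fixed by the choice.

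**Figure D5:**
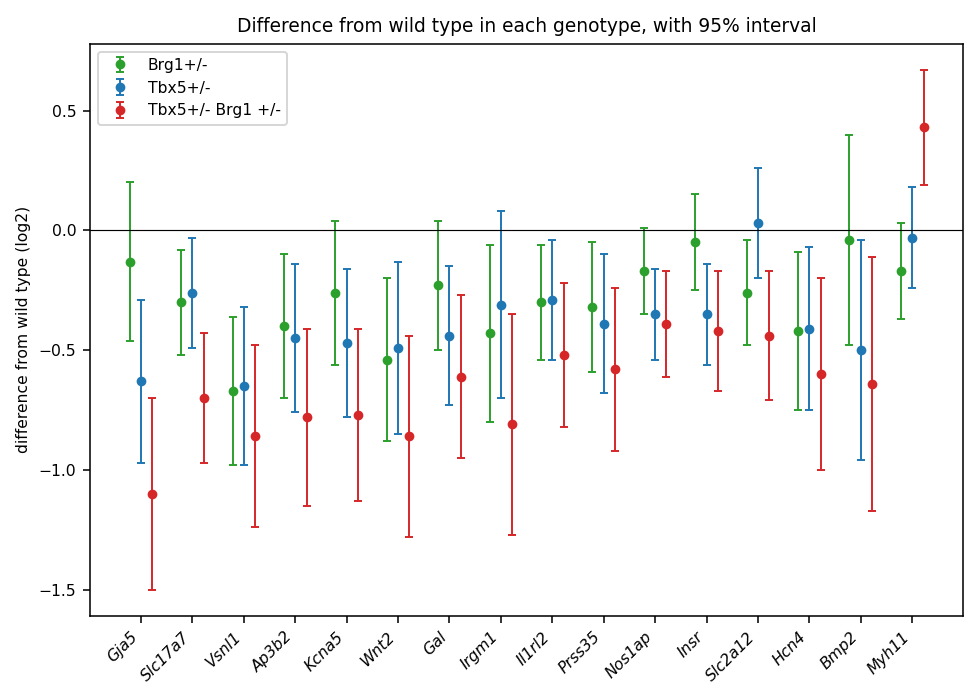
Difference from wild type (log2, vertical axis) of 16 genes in Brg1+/- (n = 6), Tbx5+/- (n = 5) and Tbx5+/- Brg1 +/- (n = 3) hearts, with 95% intervals from limma. Gja5 runs from -0.13 to -0.63 to -1.10 across the 3 genotypes, and Myh11 is above 0 in the last only, at 0.43. All 3 genotypes are set against the same wild-type arrays.

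Set directly against Tbx5+/- arrays, Tbx5+/- Brg1 +/- hearts differed in 0 genes at a limma adjusted p under 0.05 (0%), and 494 genes (2.48%) had an unadjusted p under 0.05, or 805 when replicate 2 of the compound group was left out. The difference was -0.47 for Gja5 (95% interval -0.88 to -0.06), -0.43 for Slc17a7 (-0.72 to -0.15) and -0.47 for Slc2a12 (-0.75 to -0.19), with no overlap between the groups for each. For Myh11 it was 0.46 (0.21 to 0.71). The adjusted p was 0.9997 for each. These 4 genes were chosen by their difference from wild type on the same 3 arrays, so their intervals and lack of overlap are partly fixed by that choice. Without replicate 3 of the compound group these 4 differences were -0.38, -0.49, -0.45 and 0.56. For Vsnl1, Ap3b2, Kcna5 and Wnt2 the interval held 0, so a difference of Vsnl1 from -0.60 to 0.19 remained possible. Ap3b2 stood at -0.33 (-0.71 to 0.05).

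Against Brg1+/- arrays, whose label differs by the Tbx5 deletion, measured Smarca4 differed as well, and measured Tbx5 was higher, not lower. Tbx5 was 8.50 to 8.70 in Tbx5+/- Brg1 +/- and 7.83 to 8.35 in Brg1+/-, a difference of 0.50 (95% interval 0.20 to 0.79, limma adjusted p = 0.588). In Brg1+/- it stood at -0.45 against wild type. Its probe set does not check the label, as said above. All 3 Tbx5+/- Brg1 +/- arrays (9.51 to 10.01) lay above every Brg1+/- array (9.16 to 9.45), by 0.40 on average (95% interval 0.16 to 0.64, adjusted p = 0.588), and replicate 3 reads like arrays with no Brg1 deletion. In this comparison 0 genes were called (0%) and 1626 (8.16%) had an unadjusted p under 0.05. That number was 2023 without replicate 3, 802 when replicate 1 of the compound group was left out and 1009 without Brg1+/- replicate 2. Ddc, the decarboxylase that makes dopamine and serotonin, was 8.67, 8.46 and 8.45 against 7.11 to 7.82 in Brg1+/-, a difference of 1.09 (adjusted p = 0.0511). It was 7.54 to 8.65 in wild type, where the difference was 0.46, and 8.36 to 8.87 in Tbx5+/-. Gja5 stood at -0.97 (95% interval -1.36 to -0.57, adjusted p = 0.208) and Myh11 at 0.60 (0.36 to 0.84, adjusted p = 0.208). Gja5 and Myh11 were chosen by their difference from wild type, and Ddc because alternatives of this comparison called it. Without replicate 3 the differences were 1.13 for Ddc, -0.88 for Gja5, 0.70 for Myh11 and 0.25 for Smarca4. The erythroid list stood at a median of 0.95 in Brg1+/- and 0.20 in Tbx5+/- Brg1 +/- hearts (-0.22 without replicate 3), each against wild type. With the mean of that list as a term in the fit, the Gja5 difference was -1.10 with an adjusted p of 0.0446, and Ddc was not among the 2 genes called.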

How the data were processed

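Biotin-labelled total RNA of E11.5 mouse hearts was read on Affymetrix arrays. The authors deposited log2 signals of 28815 probe sets on 27 arrays. The submitters' processing notes name RMA and Affymetrix Power Tools without a version. The genome build is not given in the sources used here. Values were used as deposited. Array medians ran from 6.181 to 6.328, and the 9 arrays compared correlated at 0.983 to 0.994. Arrays carry no counts, so their number limits the precision.

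Of the probe sets, 21780 had 1 gene symbol in the platform annotation, 1605 several and 5430 were not listed. The probe set with the highest mean was kept for 998 genes with several, which left 19935 genes, 19853 of them matched to the reference table of GRCm38.p6. Groups follow the genotype in the labels. Differences came from limma 3.58.1 in R 4.3.3 with all 27 arrays, 1 mean per genotype and no covariate, two-sided, with Benjamini-Hochberg adjustment over all genes. The fit was tested on simulated data. Figures used matplotlib 3.10.9.

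Named genes were Smarca4, Tbx5 and Nkx2-5, the 15 lower and 15 higher of smallest p, the 10 lower and 10 higher of largest difference among genes without overlap, up to 4 called or else 3 members of smallest p of each of 26 lists, and genes called in a count of 5 or fewer under an alternative. Clone, predicted and receptor-family names were only counted, and some genes the rule allows were left out. Members and lists were chosen with earlier results of these data known.

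Alternatives were 2 further scalings, a filter on low signals, another variance prior, the compared groups alone, other uses of probe sets, array weights, a replicate block, 3 covariates and each array left out in turn. Leaving out both arrays whose Smarca4 went against the label was chosen after seeing the data.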

Additional observations from a re-analysis of the deposited data

Results flagged for a closer look

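Over the 6 wild-type arrays, 107 items (named genes and list means) were tested for a value far from the others, and 10 stood apart (9.3%). For an item on its own chance gives about 1 in 20. The items share arrays and members, and genes were chosen from these data, so the 9.3% cannot be set against that rate. Wild type replicate 6 held 7 of the 10 that stood apart, all high. On that array Hcn4 was 8.66 (others 7.24 to 7.63), Cacna2d2 9.43 (8.12 to 8.44), Shox2 7.68 (6.68 to 6.93), Tbx5 8.96 (8.40 to 8.56), Kdr 9.96 (9.0 to 9.21) and Irgm1 6.29 (5.49 to 5.78), and the conduction list mean was 7.99 (7.66 to 7.78). Without this array the difference between Tbx5+/- Brg1 +/- and wild type was -0.39 for Hcn4, -0.47 for Cacna2d2, -0.32 for Shox2, -0.32 for Kdr, -0.70 for Irgm1 and 0.12 for Tbx5, and the conduction list median was -0.15.

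Wild type replicate 3 was high in liver genes, with Alb at 9.71 (others 4.45 to 5.65) and a liver list mean of 7.38 (5.39 to 5.88). Lyve1, a marker of lymphatic vessels and some macrophages, was low on wild type replicate 1 at 6.45 (6.74 to 6.89), and its difference without that array was 0.25.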

How the results depend on the processing

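Against wild type, 1 gene was called with the compared groups alone (Gja5, limma adjusted p = 0.00457), 1 with the first principal component of the residuals added (Gja5, 9.4e-04), 6 with array weights and 1 unnamed probe set with all probe sets (difference -0.87, adjusted p = 0.0173). Apart from the replicate block (given after), all other settings called 0 genes, and leaving out each array in turn gave 0 to 0, with 596 to 1231 genes at an unadjusted p under 0.05. The adjusted p of Gja5 ran from 9.4e-04 to 0.71, and its difference from -1.18 to -1.01. The lowest adjusted p came with the principal component, which was taken from the residuals of these same data. That term takes up spread and left the difference at -1.10, so this p is not separate evidence. Against Tbx5+/-, array weights called 2 genes, both higher (Cct8l1 and a clone-named gene), and every other setting 0. Against Brg1+/-, 1 gene was called with the dimmest genes removed and 1 with a trended and robust prior (Ddc in both), 3 with array weights (Ddc, Myh11, Gja5), 2 with the erythroid list mean (Gja5 and a vomeronasal receptor gene, both lower) and 2 with the principal component (Ddc, Gja5), and 0 to 1 with an array left out, the 1 being Ddc without Brg1+/- replicate 1 or 4.

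Genes at an unadjusted p under 0.05 against wild type numbered 1783 with array weights, 1753 with the block, 1365 with the principal component and 425 among the 13290 brighter genes, in place of 873. Against Tbx5+/- the same settings gave 1532, 937, 746 and 151 in place of 494, the compared groups alone 1003, and leaving out Tbx5+/- Brg1 +/- replicate 2 gave 805. Against Brg1+/-, array weights gave 3372, the block 2968, both arrays of doubtful label left out 2681, the erythroid list mean 1047 and single arrays left out 802 to 2125, in place of 1626.

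No pairing by replicate number was seen in 1 check. Same-numbered Tbx5+/- Brg1 +/- and wild-type arrays correlated at -0.055, -0.039 and 0.071 in their deviations, and none correlated best with its own number. Whether a batch follows the replicate number was not tested. With the replicate block, 1 gene was called against wild type (Gja5, adjusted p = 0.0466), 1 against Brg1+/- (Ddc) and 0 against Tbx5+/-.

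Of 82 genes followed through 22 settings, 81 kept their direction. Nppa turned positive with array weights (0.017), the erythroid list mean (0.031), both arrays of doubtful label left out (0.217) and single arrays left out (its range was -0.169 to 0.217). The cause was not tested. The number of arrays limits small differences.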
